A study of Mus musculus with 6 samples.

Results

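Cyclins are the regulatory subunits that switch cyclin-dependent kinases on, and 10 genes of this machinery were followed in regenerating mouse liver: the D-type cyclins Ccnd1, Ccnd2 and Ccnd3, the E-type cyclins Ccne1 and Ccne2, cyclin A2 (Ccna2), the B-type cyclins Ccnb1 and Ccnb2, the F-box cyclin Ccnf and the kinase gene Cdk1. They were chosen by name, with earlier results of these data known. Every array probe whose RefSeq accession belongs to one of them was kept. This gave 16 of the 55681 probes on the array and 10 of 20018 genes named there. Right-lobe liver RNA of male C57BL/6J mice was taken 3 days after surgery and measured on single-colour (Cy3) Agilent arrays, 1 per sample. In the PVBL group (3 samples) the left branch of the portal vein had been ligated, and the right lobe is labelled as regenerating liver. The sham group (3 samples) was sham-operated. Whether each sample is from its own animal is not stated in the labels, and p-values here reflect only how far these 6 samples scatter, some of which may be technical. Whole lobe was used, so more cells of a dividing type and more RNA per cell cannot be told apart.

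In quiescent liver hepatocytes rest outside the cell cycle. D-type cyclins act with Cdk4 and Cdk6 in G1 and respond to growth signals, E-type cyclins act with Cdk2 at the entry to S phase, cyclin A2 acts in S and G2, and B-type cyclins with Cdk1 drive mitosis. Cyclin F is not known as a kinase activator and serves as the substrate receptor of a ubiquitin ligase. Levels of A-type and B-type cyclins are set both by transcription late in the cycle and by destruction through the anaphase-promoting complex.

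The M-phase, S-phase and G1 genes differed between PVBL and sham by different amounts. Ccnb2, Ccna2, Cdk1 and Ccnb1 were 33.5-fold to 72.0-fold higher in PVBL by the probe with the highest mean of each gene, Ccnd1 was 7.47-fold and Ccne1 6.21-fold higher, and Ccnf was 1.86-fold higher. The place of Cdk1 depends on the probe, since another of its probes was flat (log2 difference 0.044). With the mean over its tested probes Cdk1 differed by 2.90 (log2), as Ccnd1 did. Ccnd2 and Ccnd3 did not pass the test, and Ccne2 was below a reliable signal on all arrays. Of the 15 member probes tested, 11 were called higher and none lower at an adjusted p under 0.05 (limma, Benjamini-Hochberg over all 27914 probes tested). These include 4 probes, of Ccne1, Ccnb1 and Cdk1, that were not above background on any sham array. They entered the test only through PVBL, where they are high, so their calls add no support. With only probes above background on all 6 arrays tested, 7 member probes were called higher, as were 2818 of all 24632 such probes. Over the whole array 30.5% of the probes tested were called, 11.3% higher and 19.3% lower. The called probes stood for 7 of the 9 genes tested. On these 11 probes every PVBL array was above every sham array, which held for 17.6% of all probes tested, where 50.6% had groups without overlap in either direction, and 6 of them, from 4 genes, were called at least 16-fold higher, against 0.652% of all probes tested. With normexp, a second background correction that adds 50 units to every signal, only Ccna2, Ccnb2 and probe 2 of Ccnb1 reached 16-fold. The median log2 difference over all probes tested was -0.19.

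**Figure D1:**
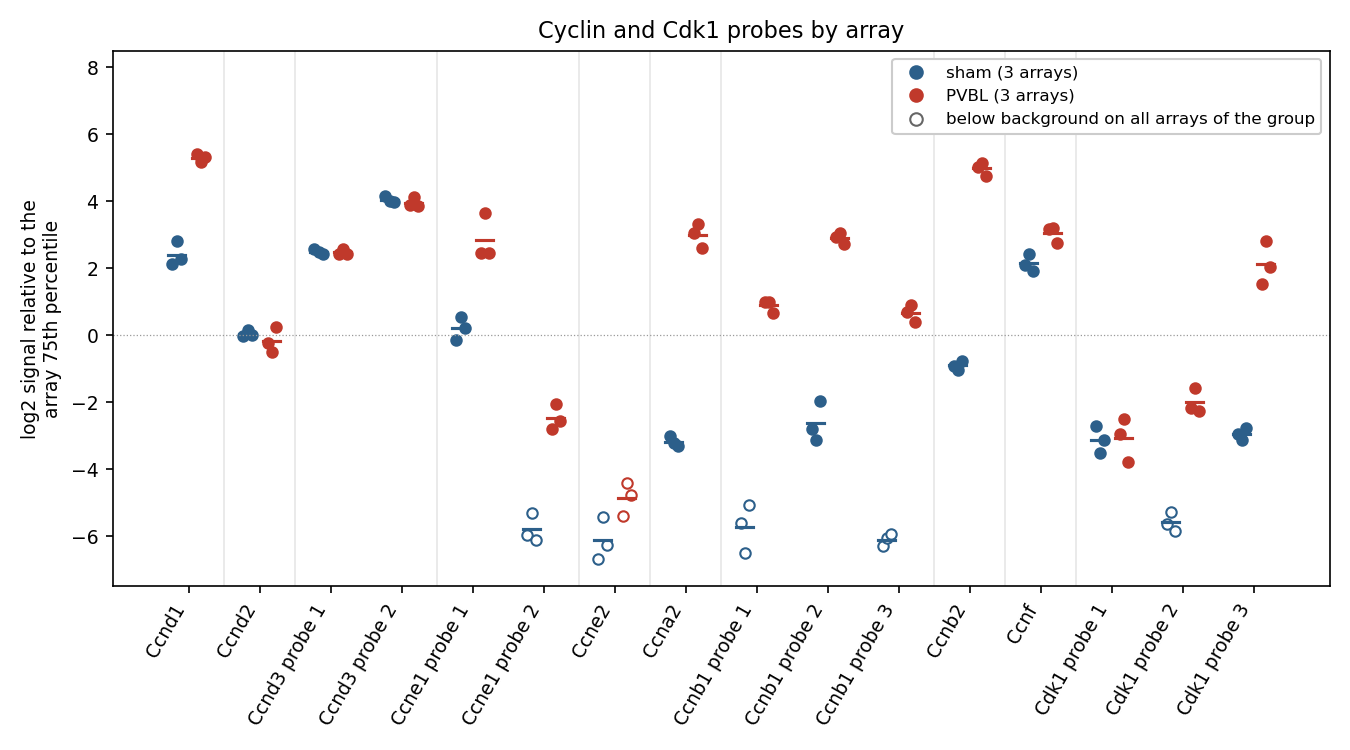
Log2 signal of each of the 16 probes relative to the 75th percentile of its array, with 1 point per array (sham blue, PVBL red) and a bar at the group mean. Open points mark a group in which no array was well above background. The groups stand apart for Ccnd1, Ccne1, Ccna2, Ccnb1, Ccnb2, Ccnf and 2 of the 3 Cdk1 probes, and overlap for Ccnd2, Ccnd3 and Cdk1 probe 1. For Ccne2 they also stand apart, by a very small gap, but no array measured it well above background. A level may be compared between groups within a probe but not between probes.

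Promoter sequences are shown for the M-phase genes and for Ccnf and Ccne1 as contrasts, because late cell-cycle genes are known to share promoter elements. RefSeq windows (assembly GRCm38.p6, 250 bases before to 50 after the start site) were found for 6 of the 10 genes: Ccnb1, Ccnb2, Cdk1, Ccnf, Ccne1 and, with 2 start sites, Ccnd3. Capitals mark matches on either strand to CCAAT (the box bound by the factor NF-Y), to TTTGAA (the cell cycle homology region, CHR, bound by the DREAM and B-Myb complexes) and to the E2F letters TTTGGCGC, TTTCGCGC, TTTCCCGC or TTTGCCGC. No base of the windows lay in 2 of these matches.
Ccnb1, chr13:100786437-100786736, minus strand: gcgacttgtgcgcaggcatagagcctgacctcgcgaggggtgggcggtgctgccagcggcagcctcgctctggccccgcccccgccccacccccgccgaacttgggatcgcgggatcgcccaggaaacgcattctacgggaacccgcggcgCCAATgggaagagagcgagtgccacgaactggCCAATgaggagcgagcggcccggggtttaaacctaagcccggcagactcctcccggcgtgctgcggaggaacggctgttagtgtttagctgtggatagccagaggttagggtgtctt
Ccnb2, chr9:70421505-70421804, minus strand: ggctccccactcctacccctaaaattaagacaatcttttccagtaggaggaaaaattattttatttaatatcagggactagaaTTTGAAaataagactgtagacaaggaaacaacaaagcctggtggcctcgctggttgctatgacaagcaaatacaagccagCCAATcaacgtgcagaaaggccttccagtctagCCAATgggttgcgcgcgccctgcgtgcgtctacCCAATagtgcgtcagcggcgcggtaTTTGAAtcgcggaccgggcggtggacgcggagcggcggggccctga
Cdk1, chr10:69352863-69353162, minus strand: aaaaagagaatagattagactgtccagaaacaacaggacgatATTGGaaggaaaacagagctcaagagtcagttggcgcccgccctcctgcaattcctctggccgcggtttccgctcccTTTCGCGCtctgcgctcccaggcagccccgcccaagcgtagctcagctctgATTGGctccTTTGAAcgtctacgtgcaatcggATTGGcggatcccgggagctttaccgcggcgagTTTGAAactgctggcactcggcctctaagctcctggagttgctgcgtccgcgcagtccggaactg
Ccnf, chr17:24251360-24251659, minus strand: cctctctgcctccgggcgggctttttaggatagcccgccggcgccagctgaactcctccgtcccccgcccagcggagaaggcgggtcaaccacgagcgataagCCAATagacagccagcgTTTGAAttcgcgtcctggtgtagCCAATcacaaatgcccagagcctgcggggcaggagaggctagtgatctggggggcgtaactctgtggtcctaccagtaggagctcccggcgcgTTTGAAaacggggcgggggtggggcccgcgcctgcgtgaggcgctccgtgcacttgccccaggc
Ccne1, chr7:38107441-38107740, minus strand: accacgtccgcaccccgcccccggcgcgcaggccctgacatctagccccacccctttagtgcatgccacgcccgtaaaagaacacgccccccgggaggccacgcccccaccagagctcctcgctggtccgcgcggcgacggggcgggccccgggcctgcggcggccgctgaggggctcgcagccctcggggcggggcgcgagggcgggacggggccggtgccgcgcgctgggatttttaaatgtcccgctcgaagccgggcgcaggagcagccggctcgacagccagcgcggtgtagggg

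CCAAT matches began 99 and 67 bases before the start site in Ccnb1, 87, 54 and 21 bases before it in Ccnb2, and 208, 80 and 48 bases before it in Cdk1. In Ccnb1 and Cdk1 a pair lay 32 bases apart, in Ccnb2 the 3 followed each other at 33 bases, and in Ccnf the pair was 40 bases apart. At least 1 CCAAT stood in 37.4% of all 32851 windows of this length and at least 2 in 11.7%. A pair 31 to 33 bases apart, a spacing chosen after these positions were seen, stood in 0.971%. CHR letters were found in Ccnb2, Cdk1 and Ccnf, with 2 matches each, and in 17.9% of all windows. Both a CHR and at least 2 CCAAT were in these same 3 genes and in 2.09% of all windows. Cdk1 alone among the printed windows had an E2F match, 131 bases before the start, against 2.26% of all windows. In Ccne1 none of these letters occurred, and of the 2 Ccnd3 windows 1 held a single CCAAT. A match is a description of the letters and not a measured site. Only these exact letters were searched, so a window without a match may still hold another form of the site.

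**Figure D2:**
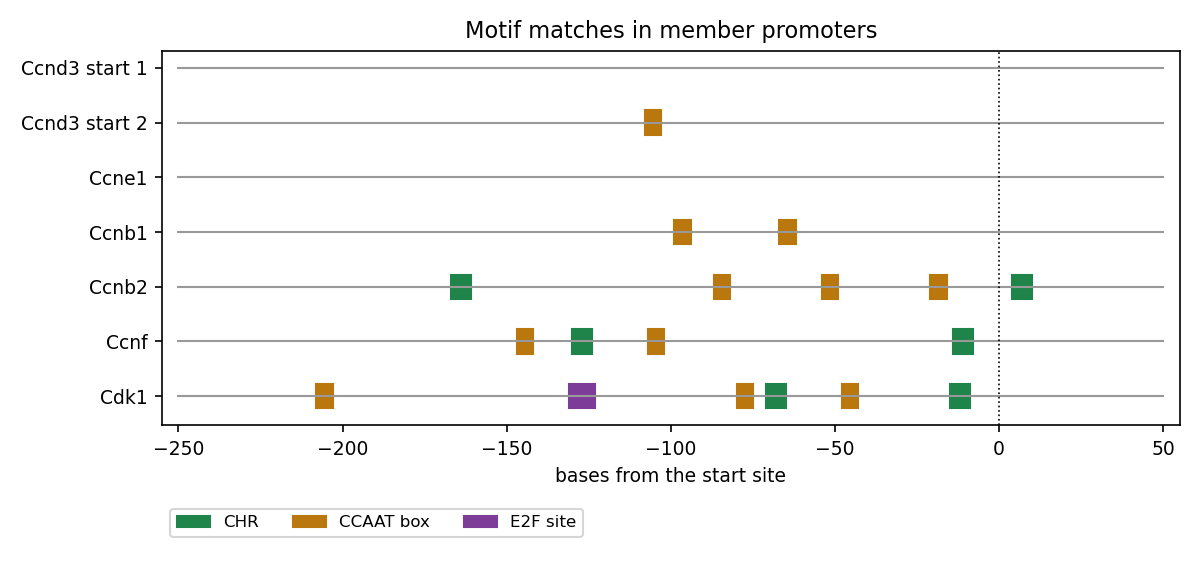
Positions of the motif matches in the 7 promoter windows found for member genes, in bases from the start site (dotted line), with each box drawn at the width of its match. Ccnb1, Ccnb2, Cdk1 and Ccnf hold 2 or 3 CCAAT matches each, Ccnb2, Cdk1 and Ccnf also hold CHR matches, and the windows of Ccne1 and of 1 Ccnd3 start hold none.

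Levels below are log2 signals relative to the 75th percentile of the same array. A log2 level of 0 is that percentile, which corresponded to 203 to 407 scanner units. Between 48.0% and 53.6% of the probes on an array were well above background, and no spot was saturated. All arrays lay on 1 slide with 1 scan, with sham along row 1 and PVBL along row 2, and the effect of the row and that of the operation cannot be told apart. Where a gene had several probes they are numbered in the order of their array names. With so few arrays, precision is limited by their number.

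Among the G1 cyclins, only Ccnd1 was called. Ccnd1 stood at 5.43, 5.16 and 5.32 on PVBL arrays 1 to 3 and at 2.14, 2.81 and 2.27 on sham arrays 1 to 3. The lowest PVBL array was far above the highest sham array, and the spread within PVBL was narrow. The log2 difference was 2.90 ± 0.20 (SE, n = 3 per group; limma adjusted p = 0.000162), and it was 7.60-fold with normexp. In raw terms the processed signal of Ccnd1 was 11846 to 17551 units in PVBL and 978 to 2115 units in sham, so this gene was already well measured in sham liver.

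Ccnd2, a D-type cyclin also known from gonads and lymphocytes, stood at -0.24, -0.50 and 0.26 in PVBL and at -0.015, 0.16 and 0.00093 in sham. PVBL 3 was above all sham arrays and PVBL 1 and 2 were below them, so the groups overlapped. On the log2 scale the difference was -0.21 (95% interval -0.69 to 0.27; limma adjusted p = 0.457), and it was 0.11 with spike-in scaling. Ccnd3 had 2 probes, and its brighter one (probe 2) stood at 3.89, 4.12 and 3.87 in PVBL and 4.16, 4.02 and 3.97 in sham. Their log2 differences were -0.089 (95% interval -0.40 to 0.23; limma adjusted p = 0.631) and -0.013 (-0.30 to 0.28; adjusted p = 0.940). Both Ccnd3 values were above 0 with normexp, median and spike-in scaling, and none of these was called. The upper ends of the Ccnd3 intervals lay below the lower end of the Ccnd1 interval, 2.43.

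The E-type cyclins gave 1 gene that rose and 1 that could not be measured. Ccne1 probe 1 stood at 2.45, 3.66 and 2.45 in PVBL and at -0.14, 0.56 and 0.22 in sham. PVBL 2 was above PVBL 1 and 3, and all 3 were above sham. The log2 difference was 2.63 ± 0.35 (SE, n = 3 per group; limma adjusted p = 0.00294). Ccne1 probe 2 was dim, with processed signals of 57.4 to 79.3 units in PVBL and none of the 3 sham arrays well above background, and its fold was at least 3.35 (adjusted p = 0.000378, fitted log2 difference 3.31, but 0.53 with normexp). For such a bound the sham value is replaced, array by array, by the lowest signal that counted as well above background there, unless the probe's own is higher. Ccne2 had 1 probe, with 9.57 to 15.5 units in PVBL and 2.65 to 7.01 units in sham, where the lowest signal well above background on an array was 11.9 to 23.8 units. None of the 6 arrays measured it well above background, and it was left out of the test.

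Ccna2, the S and G2 cyclin, rose. It stood at 3.05, 3.32 and 2.60 in PVBL and at -3.01, -3.23 and -3.30 in sham. All 6 arrays were well above background, with 20.6 to 39.1 units in sham and 2064 to 3380 units in PVBL. Its log2 difference came to 6.17 ± 0.20 (SE, n = 3 per group; limma adjusted p = 7.53e-06). With normexp it was 23.7-fold higher.

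Both B-type cyclins rose. Ccnb2 stood at 5.04, 5.16 and 4.77 in PVBL and at -0.90, -1.03 and -0.76 in sham. The arrays within each group lay close together, and the groups were far apart. Its log2 difference was 5.89 ± 0.15 (SE, n = 3 per group; limma adjusted p = 3.21e-06), or 59.1-fold, and 39.4-fold with normexp. The Ccnb2 signal in sham was 120 to 168 units, well above background on all arrays.

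Ccnb1 had 3 probes of the same accession. Probe 2, with the highest mean, stood at 2.94, 3.05 and 2.71 in PVBL and at -2.80, -3.11 and -1.95 in sham. Here sham 3 was above sham 1 and 2, and all sham arrays were far below PVBL. The log2 difference was 5.52 ± 0.29 (SE, n = 3 per group; limma adjusted p = 4.56e-05), or 46.0-fold, and 17.2-fold with normexp. No sham array measured probes 1 and 3 above background, and these probes were at least 34.7-fold and at least 29.4-fold higher in PVBL (fitted log2 differences 6.62 and 6.76, adjusted p = 4.09e-05 and 3.21e-06). With normexp those 2 probes differed by 3.22 and 2.76, below their bounds of 5.12 and 4.88, since the added offset exceeds the signals in sham. The RefSeq table lists pseudogene copies of Ccnb1, Ccnb2 and Ccnd3, and whether the probes also meet them was not tested.

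Cdk1, the kinase that B-type cyclins activate, had 3 probes of 1 accession that did not give the same result. Probe 3, with the highest mean, stood at 1.52, 2.83 and 2.04 in PVBL and at -2.93, -3.12 and -2.75 in sham. PVBL 2 was the highest and PVBL 1 the lowest of the PVBL arrays, and both were far above sham. On the log2 scale this was a difference of 5.07 ± 0.32 (SE, n = 3 per group; limma adjusted p = 0.000107), or 33.5-fold, and 14.0-fold with normexp. Probe 2 was below background on every sham array and at least 4.66-fold higher in PVBL (adjusted p = 0.000130, log2 difference 0.69 with normexp).

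Cdk1 probe 1 showed no rise. It stood at -2.94, -2.51 and -3.78 in PVBL and at -2.71, -3.53 and -3.13 in sham, so the groups overlapped. All 6 arrays were above background, with 23.2 to 58.0 units, close to the lowest signals that counted as such. The log2 difference was 0.044 (95% interval -0.78 to 0.86; limma adjusted p = 0.931), and it was -0.24 with normexp. With the mean over the tested Cdk1 probes, the log2 difference of the gene was 2.90 (limma adjusted p = 0.000340). The array files do not say which stretch of the transcript each probe reads.

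Ccnf moved least among the called genes. It stood at 3.19, 3.20 and 2.76 in PVBL and at 2.11, 2.44 and 1.91 in sham. The groups did not overlap, yet PVBL 3 was only slightly above sham 2. PVBL exceeded sham by a log2 difference of 0.90 ± 0.19 (SE, n = 3 per group; limma adjusted p = 0.0155). This call was lost without PVBL 1 (0.83, adjusted p = 0.0510), sham 1 (0.87, adjusted p = 0.0582) or sham 3 (0.78, adjusted p = 0.0534), and when probes of any brightness were tested together (adjusted p = 0.0660). Its promoter window, printed above, held CCAAT and CHR letters, as did those of Ccnb2 and Cdk1.

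**Figure D3:**
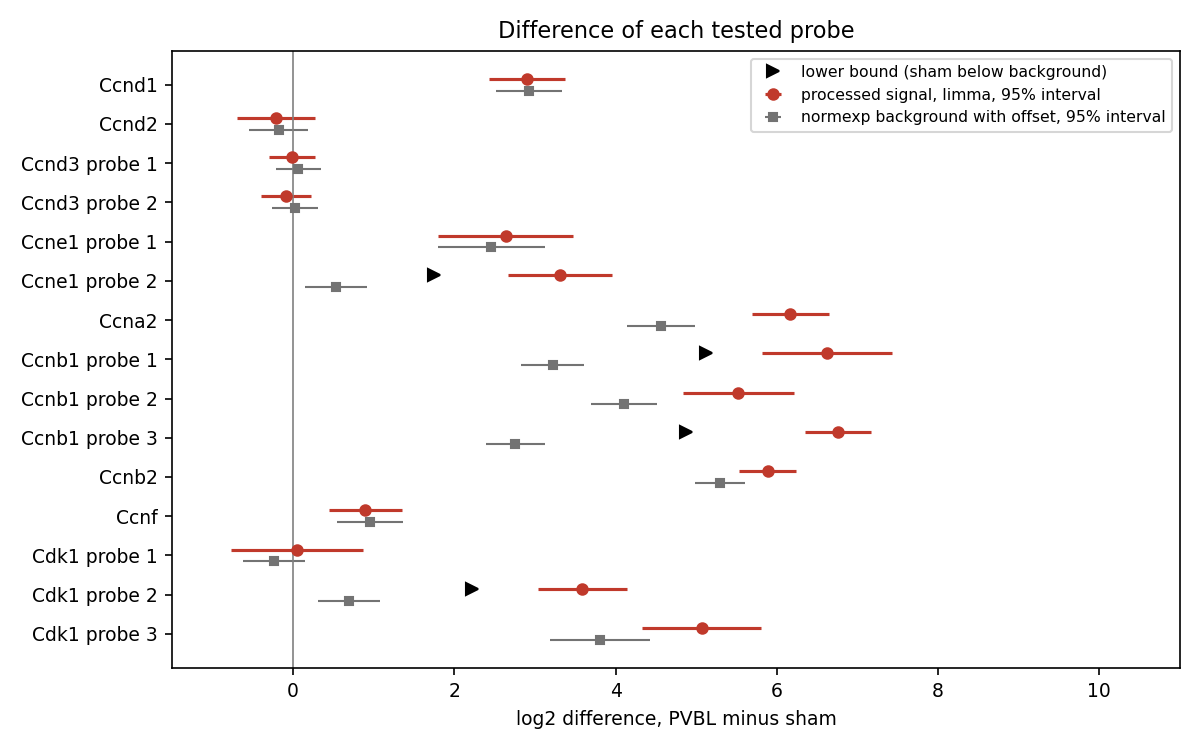
Log2 difference, PVBL minus sham, of the 15 member probes tested, with 95% intervals, from the processed signal (red) and with normexp background correction (grey). Black triangles mark the lower bound of the 4 probes that no sham array measured. Ccnd2, Ccnd3 and Cdk1 probe 1 lie at 0, Ccnf near 1, Ccnd1 and Ccne1 near 3, and Ccna2, Ccnb1, Ccnb2 and Cdk1 probe 3 at 5 or more in the processed signal.

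The differences of member genes were set against each other within each array for 5 pairs, with 1 probe per gene. The rise of Ccnd1 exceeded the change of Ccnd2 by 3.11 ± 0.25 (SE, log2) and that of Ccnd3 by 2.99 ± 0.28. The rise of Ccnb1 exceeded that of Ccnd1 by 2.62 ± 0.52, or by 1.18 with normexp and by 3.40 with the mean over the probes of a gene. In these 3 pairs every PVBL array lay above every sham array, and the exact permutation test (two-sided, 3 against 3) gave p = 0.10, the smallest it can give (0.167 adjusted over the 5 pairs). Ccnb1 and Ccnb2 differed by -0.36 ± 0.27 (exact permutation p = 0.20, adjusted 0.25), which became -1.20 with normexp, 0.42 with the mean over probes and -0.095 without sham 3. Cdk1 and Ccnb1 differed by -0.46 ± 0.43 (exact permutation p = 0.40, adjusted 0.40), or by -3.40 with the mean over probes, where the flat Cdk1 probe and the dim Ccnb1 probes enter. It was -0.30 with normexp, -0.13 without PVBL 1, -0.73 without PVBL 2 and -0.70 without sham 3. With 3 arrays a group this exact test cannot reach 0.05.

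The spread among the PVBL arrays differed from gene to gene. Set against the sham mean, Ccne1 rose by 2.23, 3.44 and 2.23 on PVBL 1 to 3, and Cdk1 by 4.45, 5.77 and 4.98. Ccna2 rose by 6.23, 6.50 and 5.78. PVBL 2 was the highest array for these genes and also for Ccnb1, Ccnb2, Ccnf and Ccnd3, but not for Ccnd1 or Ccnd2. PVBL 3 was the lowest for Ccna2, Ccnb1, Ccnb2, Ccnf and Ccnd3. For Ccnd1 the range was 0.27, against 1.31 for Cdk1 and 1.21 for Ccne1. Beyond their numbers the labels do not distinguish the 3 PVBL samples.

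**Figure D4:**
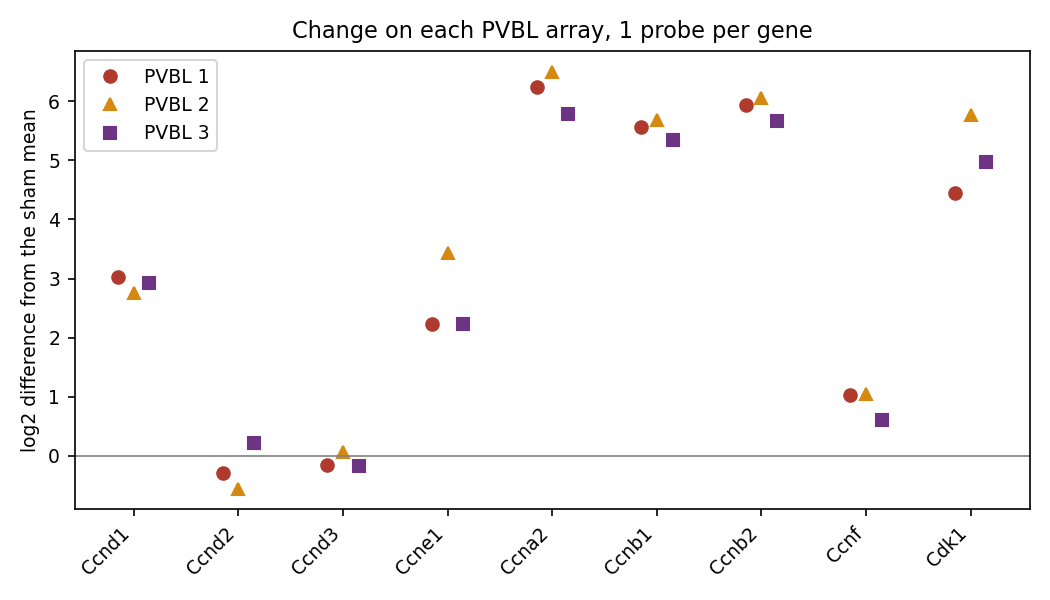
Log2 difference of each PVBL array from the sham mean, for the probe with the highest mean of each of the 9 genes tested. The arrays lie within 0.27 of each other for Ccnd1 and within 1.31 for Cdk1, and PVBL 2 (triangle) is highest for all of them except Ccnd1 and Ccnd2.

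Genes with the most similar profiles were sought among the 12562 genes well above background on all arrays, by the root mean square difference of log2 levels over the 6 arrays after each gene was centred on its own mean. Nearest to Ccna2 were Ube2c (0.085), a ubiquitin-conjugating enzyme of the anaphase-promoting complex, the mitotic kinase gene Aurka (0.10) and the proliferation marker Mki67 (0.12). Nearest to Ccnb1 were Arhgef39 (0.29), the CDK inhibitor gene Cdkn1a (0.30) and Racgap1 (0.32), which acts in cytokinesis. Ccne1 was nearest to the histone gene H3c14 (0.20), one of a near-identical family, and to Atad2 (0.23) and Chaf1b (0.25), a subunit of the complex that loads histones at replication. Ccnd1 was nearest to Mthfd1l (0.18), a mitochondrial folate enzyme gene, the cytochrome P450 gene Cyp2c55 (0.22), which has close relatives, and Ttc39a (0.22). These distances describe 6 arrays in which group membership dominates.

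The partners of the cyclins were described from lists of the pathway, with 1 probe per gene. Of the 13586 genes tested, 14.4% were called higher and 16.8% lower, with a median log2 difference of -0.10. Of 6 catalytic subunits and activating kinase genes 5 were tested, none rose and 1 fell, with a median of 0.31, although 2 rose with median scaling, with the percentile over probes above background on all arrays and without PVBL 3, and 1 rose with quantile scaling, array weights or 1 probe per gene. Cdk2 (0.31, adjusted p = 0.104) and Cdk4 (0.34, adjusted p = 0.138), the partners of E-type and D-type cyclins, did not pass the limma test, and Cdk6 was not tested. The gene that fell was Ccnh, the cyclin of the CDK-activating kinase (-0.58 ± 0.17, adjusted p = 0.0401), and that call was lost without each array except PVBL 2, with the replicate number as a block (adjusted p = 0.0618), with no filter on dim probes (adjusted p = 0.135), and with median (-0.45) and spike-in scaling (-0.27).

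Of 12 regulators of Cdk1 11 were tested, 9 rose and none fell, with a median of 1.89, or 1.03 with normexp and 1.08 over the 8 genes above background on all 6 arrays. For the mitotic kinase gene Plk1 the log2 difference was 7.66 (39.5-fold with normexp), and it was above background on 1 of 3 sham arrays. Pkmyt1, the kinase that holds Cdk1 inactive, differed by 4.49 ± 0.22 (limma adjusted p = 3.54e-05). Cdc25c, the phosphatase that releases Cdk1, and Mastl, the Greatwall kinase, were below background on all sham arrays and were at least 5.17-fold and at least 9.90-fold higher, or 2.04-fold and 2.29-fold with normexp. Both activators and inhibitors of Cdk1 were thus among the genes that rose, while Wee1 (0.82, adjusted p = 0.0745, but 0.0454 with normexp) and Ensa (0.14, adjusted p = 0.412) did not pass.

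Of 18 genes of cyclin destruction 16 were tested, 5 rose and 2 fell, with a median of 0.14. Cdc20, the mitotic activator of the anaphase-promoting complex (7.21), and Ube2c (6.09), whose change was close to that of Ccna2, rose by the largest amounts, with 6.14 and 4.62 under normexp. They were followed by Fbxo5, the inhibitor of that complex (2.72, or 1.97 with normexp), and the ubiquitin-chain enzyme gene Ube2s (1.55). The fifth was Fzr1 (0.48, limma adjusted p = 0.0244, in 1 of its 2 probes), and those that fell were Btrc (-1.11, in 1 of its 2 probes) and Fbxo31 (-1.05), a ligase subunit known to act on cyclin D1, neither of them called with spike-in scaling. These 3 were named after their values were seen. Of the list, 4 genes rose with the replicate block, with spike-in scaling, with no filter on dim probes, and without PVBL 1 or any 1 sham array. No core subunit of the complex on the list (Anapc2, Anapc11, Cdc16, Cdc23, Cdc27) was called.

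Among 8 CDK inhibitor genes 5 rose and 1 fell, with a median of 1.23 (0.79 with normexp), and 3 rose with no filter on dim probes or without sham 2. Cdkn3, a phosphatase that acts on CDKs, differed by 6.79 (log2) and Cdkn1a (p21) by 5.44, which with normexp were 27.9-fold and 14.8-fold rises. Cdkn2c differed by 1.25 and Cdkn2a by 1.52 (limma adjusted p = 0.0231), the latter by 0.42 without a call under normexp. The call of Cdkn2a was also lost without PVBL 1, PVBL 3, sham 1 or sham 2 (1.25 to 1.51) and when all probes were tested. Cdkn1b (p27) did not pass (-0.13, adjusted p = 0.475). Of the genes named after their values were seen, Cdkn2d rose by 1.20 and Cdkn1c (p57) fell by 0.80, the latter without a call under spike-in scaling or with no filter on dim probes.

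Of 18 regulators of cyclin transcription 8 rose and 2 fell, with a median of 0.40, and none fell with median or spike-in scaling, with no filter on dim probes, or without sham 1 or sham 2. Without each of the other arrays 1 fell. Foxm1, which drives genes of G2 and M, differed by 4.46 ± 0.17 (limma adjusted p = 1.18e-05), Rbl1 (p107) by 3.26 (3.34 and 2.20 with normexp), and the S-phase factors E2f1 and E2f2 by 2.62 and 2.35. Named after their values were seen, Rbl2 (p130), a subunit of the repressor complex of resting cells, fell by 0.80, and E2f7 fell by 0.58 in its brighter probe while its other probe was called higher. Rb1 (-0.041, adjusted p = 0.822) and Myc (0.92, adjusted p = 0.289) did not pass.

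Cyclins outside the member set, among them those of the transcription kinases, were set beside the 14.4% called higher and 16.8% called lower over all genes tested. Of 16 such cyclins 13 were tested, 1 rose and none fell, with a median of -0.24 (0.083 with spike-in scaling). With so few genes these counts cannot be told from those shares. Falls were called in 3 of these cyclins with array weights, in 2 with normexp or without PVBL 3, and in 1 with the replicate block, the robust trended fit or 1 probe per gene. The riser was Ccng1, a p53 target (0.81 ± 0.14, limma adjusted p = 0.00699). For Ccnyl1, 1 of 2 probes was called higher, but not the one that stood for the gene. The cyclins of transcription kinases, Ccnc, Ccnk, Ccnl1, Ccnl2, Ccnt1 and Ccnt2, lay between -0.57 (Ccnl1, adjusted p = 0.0754) and 0.0050 (Ccnt1) and did not pass the limma test. With normexp Ccnl1 was called lower (-0.46, adjusted p = 0.0464). They were named after their values were seen.

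**Figure D5:**
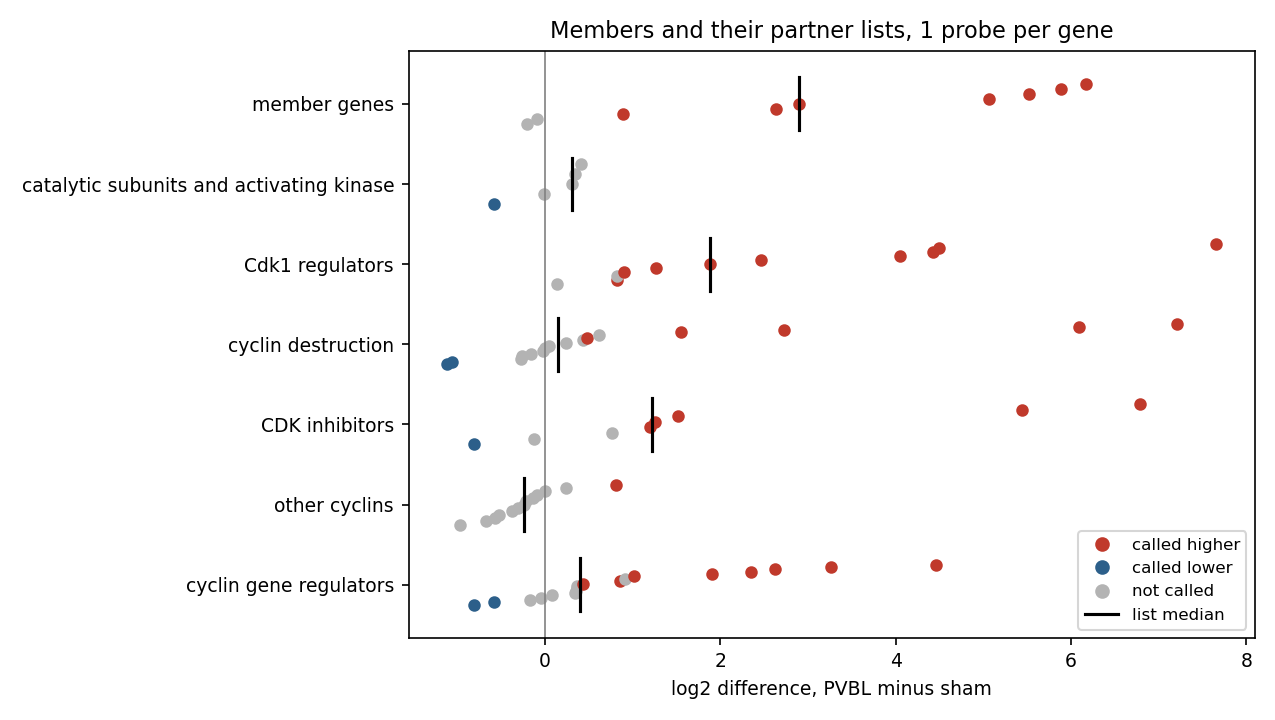
Log2 difference, PVBL minus sham, of each tested gene in the member set and the 6 partner lists, 1 probe per gene, coloured by call, with a bar at the median. The Cdk1 regulators have a median of 1.89 and the other cyclins one of -0.24, and the catalytic subunits hold no called rise. Genes not measured in sham are drawn at their fitted difference.

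Markers of cell types that the lobe could hold were followed beside these genes. Over all genes tested, 14.4% were called higher and 16.8% lower. With so few markers per list, counts of 1 or 2 cannot be told from those shares. Of 10 hepatocyte markers none rose and 1 fell (Fgb, -0.53), and their summed signal was 5273 to 6469 times the 75th percentile in PVBL and 7047 to 7894 times in sham. Their median log2 difference of -0.33 became 0.018 with quantile, -0.20 with median and -0.013 with spike-in scaling, and none fell there. None fell either with no filter on dim probes, or without sham 1 or sham 2. With the robust trended fit 2 fell. All 10 hepatocyte markers were well above background on all 6 arrays, as the tissue label requires. Of 5 biliary markers tested 3 rose (Spp1, Krt19 and Krt7), while Epcam and Muc1 were not measured well enough to test. Sox9 (0.62, limma adjusted p = 0.0899) and Cldn4 (-0.76, adjusted p = 0.111) did not pass. The biliary sums were 6.88 to 21.3 in PVBL and 1.89 to 4.27 in sham. They mostly reflect Spp1, by far the brightest of these markers. Among 10 stellate cell and fibroblast markers 4 rose (Col1a1, Acta2, Col3a1 and Col1a2) and Lrat fell, with sums of 120 to 152 in PVBL and 126 to 132 in sham. These sums mostly reflect Dcn, the brightest of the list, which was not called (-0.30, limma adjusted p = 0.098). Endothelial markers fell in 2 of 9 cases (Clec4g and Oit3), with sums of 49.0 to 74.1 against 110 to 117. Of 8 macrophage markers tested 1 rose (Marco), with sums of 115 to 289 against 150 to 169. Without PVBL 3, 6 of the macrophage and 6 of the endothelial markers fell, where 5196 of all 28038 probes tested were called lower. Beside these, of 9 lymphocyte markers 2 fell (Cd8a and Cd3d), with sums of 40.1 to 75.1 against 64.9 to 85.0. The lymphocyte sums mostly reflect Cd4, the brightest of that list, not called by the probe used (-0.35, limma adjusted p = 0.406). None of 4 neutrophil markers tested was called by its probe of highest mean, S100a9 and Elane standing at 0.42 and 0.0030, although 1 fell with the replicate block. Of 3 erythroid markers 2 fell (Klf1 and Alas2). In Camp (neutrophil), Kdr (endothelial) and Cd4 (lymphocyte), 1 of 2 probes was called lower, but not the one that stood for the gene. The part of these cell types in the cyclin results was not tested.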

How the data were processed

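Right-lobe liver RNA of 6 mouse samples was grouped as PVBL or sham from the labels' source names. Per spot, the deposited scanner files hold an intensity corrected for background by Agilent Feature Extraction 10.7.3.1 on design 028005, per the file headers, while the submitters' processing notes name version 9.1. The deposited value table holds log2 values that matched the scaled scanner values centred on each probe's median (r of at least 0.9997 per array). All rows it shares with the arrays separate the groups, so it was chosen on the comparison itself and served only as an alternative; it keeps no level per probe.

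Processed signals were put on the log2 scale and set against the 75th percentile of their array, after removal of 3671 control spots and of 115 to 201 outlier spots an array and averaging over repeated spots. Probes were tested if well above background on all arrays of 1 group (27914 of 55681). Genes were named by RefSeq accession without version (26413 probes matched, assembly GRCm38.p6, used for names). PVBL was tested against sham in limma 3.58.1 under R 4.3.3 (lmFit and eBayes, two-sided, Benjamini-Hochberg over all probes tested), checked on simulated data. For normexp (offset 50) the spot median was used. In lists each gene entered by its probe of highest mean. Members and lists were chosen with earlier results of these data known. Named were all members, up to 4 called genes per partner list and 2 per cell type list with the largest change (the 2 brightest where none was called), and the 3 nearest profiles to 4 cyclins. Alternatives were other scalings, filters, models, gene summaries and leaving out each array. A single gene of the marker lists is not reported here.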

Additional observations from a re-analysis of the deposited data

How the results depend on the processing

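The 11 member probes called higher kept their direction under every alternative that could test them and, Ccnf excepted, their call. The deposited value table, with 10 member probes, adds little to this, since all rows it shares with the arrays separate the groups. The count of member probes called was 7 when only probes above background on all 6 arrays were tested, which leaves out the 4 probes not measured in sham, and 10 to 11 without any 1 array. Ccnf was 0.90 with no filter on dim probes, where the call was lost, and 0.78 to 1.04 without any 1 array. Differences near 0 changed sign. Ccnd2 was 0.11 with spike-in scaling. Ccnd3 probe 2 was 0.021 with normexp, 0.043 with median scaling and 0.23 with spike-in scaling, and probe 1 was 0.066, 0.12 and 0.31 under the same settings, 0.020 with the percentile taken over probes above background on all arrays, and -0.063 to 0.028 without any 1 array. Cdk1 probe 1 was -0.24 with normexp and -0.24 to 0.40 without any 1 array. Ccnb1 minus Ccnb2 was 0.42 with the mean over probes. The cause was not tested.

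Over all probes tested, 3142 were called higher and 5374 lower. This split was 3990 and 3289 with median scaling and 2504 and 612 with spike-in scaling, under which the median log2 difference of all probes moved from -0.19 to -0.055 and 0.13. With no filter on dim probes it was 1676 and 1945, and without any 1 array 1961 to 3306 and 2197 to 5196. Among the left-out arrays, the fewest calls came without sham 1. Same-numbered arrays of the groups correlated at 0.20, -0.039 and 0.23 in their deviations, and arrays of unlike number at -0.25 to 0.15. With 3 arrays a group these values cannot show whether equal numbers mark a pair, and the labels do not say so. With the replicate number as a block 11 member probes, 2829 probes higher and 4557 lower were called. The slide could not be used as a block, since there was 1, and no Ccne1 and Ccne2 comparison was run, as Ccne2 was not tested. Signals near background limit the folds of the probes dim in sham. Normexp and the processed signal also gave unlike folds for probes well above background on all sham arrays. Examples are Ccna2 (23.7-fold against 72.0-fold) and Ccnb2 (39.4-fold against 59.1-fold).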
